A study of Mus musculus with 6 samples.

Results

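The TGF-beta ligands, their receptors and the latent TGF-beta binding proteins were followed in embryonic mouse heart valves and in a bone cell line. The 10 genes were chosen by name, as the 3 ligands Tgfb1, Tgfb2 and Tgfb3, the 3 receptors Tgfbr1, Tgfbr2 and Tgfbr3, and the 4 binding proteins Ltbp1, Ltbp2, Ltbp3 and Ltbp4. All 10 were measured, among 18193 genes in all, by 24 of the 34945 probe sets that name a single gene. Probe sets ran from 1 for Tgfb3, Ltbp2 and Ltbp4 to 4 for Tgfb2 and Ltbp3.

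TGF-beta is secreted in a latent complex, in which the ligand is held by its own propeptide and the propeptide is tied to a latent TGF-beta binding protein that anchors it in the matrix. Freed ligand binds a type II receptor, which activates a type I receptor and through it the SMAD2 and SMAD3 transcription factors, while betaglycan presents ligand to the signalling receptors. In the atrioventricular canal this pathway is known for its part in the conversion of endocardium to cushion mesenchyme, and in bone for its action on osteoblast progenitors.

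Each of 3 groups had 2 Affymetrix mouse genome arrays with pooled RNA, called biological duplicates in the labels. E12.5 cushion was atrioventricular cushion of wild-type FVB/N embryos at embryonic day 12.5, E17.5 valve was atrioventricular valve of the same strain at embryonic day 17.5, and MC3T3 was the MC3T3-E1 (subclone 4) line, a single clone of mouse pre-osteoblasts grown in culture. No group was treated. How many embryos or cultures went into each pool is not known here, so the p-values measure only how these pools varied. The series asks which expression programmes remodelling valves share with osteoblast progenitors.

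Deposited values are ratios, each probe set being divided by the median of its 4 valve values, so 0 on the log2 scale stands for a gene's own midpoint in valve tissue, and levels cannot be compared between genes. A gene's log2 ratio is the mean over its probe sets. Differences are log2 differences ± the standard error from limma, over 2 arrays a group, and calls needed both a difference of at least 2-fold and an adjusted p under 0.05 (Benjamini-Hochberg, over all genes). With 2 arrays a side, the smallest p of an exact two-sided permutation test is 0.333. In bulk RNA, fewer cells of a type and less RNA per cell cannot be told apart.

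Marker lists were compared with the group labels. Of 8 measured osteoblast lineage markers, 6 were higher in MC3T3 than in each valve stage and none lower. Of 20 cardiomyocyte markers, 19 were higher in E12.5 cushion and 20 in E17.5 valve than in MC3T3, where 10 stood at the lowest deposited ratio, and of 14 endothelial markers 11 and 13 were. Of 12 valve mesenchyme markers, 5 fell and 1 rose between the stages. Against MC3T3, 4 of them were higher and 3 lower in E12.5 cushion, and 3 were higher and 4 lower in E17.5 valve. Between the stages 7 of 11 hepatocyte, 6 of 20 cardiomyocyte, 3 of 14 endothelial, 3 of 14 macrophage and leukocyte and 3 of 10 epicardial and mesothelial markers rose with none falling. Over the same interval 6 of 9 erythroid and 5 of 8 platelet markers fell with none rising. Of 10 smooth muscle markers 2 fell and none rose by these calls, yet the median log2 difference of that list was 0.21 (all genes -0.14). Whether the mix of cell types plays a part in the differences below, the Ltbp2 rise included, was not tested.

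Across the valve stages the ligands and receptors differed by less than 2-fold. Ltbp2 was 3.38-fold higher at E17.5 and was the one gene of the 10 that passed both the adjusted p and the 2-fold requirement, while Tgfbr3, Ltbp4 and Tgfbr2 were higher at E17.5 by adjusted p alone (1.55-fold, 1.33-fold and 1.29-fold). Against the valve stages, MC3T3 cells had more Tgfb3, and less Ltbp2. Tgfbr2 and Ltbp1 were also higher in MC3T3 than in E12.5 cushion, and Ltbp4 was lower in MC3T3 than in E17.5 valve.

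Of the 10 genes, 1 was called between the stages, where 6.51% of all genes were. Between E12.5 cushion and MC3T3 4 were called, against 21.1% of all genes, and between E17.5 valve and MC3T3 3 were, against 17.7%. With so few genes these counts say nothing of the family as a whole. By adjusted p alone 4, 7 and 7 of the 10 passed, against 53.5%, 57.6% and 60.1% of all genes. The median absolute log2 difference of the 10 genes was 0.21 between the stages, where that of all genes was 0.29. For E12.5 cushion against MC3T3 it was 0.56, beside 0.34 for all genes, and for E17.5 valve against MC3T3 0.59 beside 0.34. The last 2 comparisons share the MC3T3 arrays. Arrays of the groups did not overlap for 7 of the 10 genes between the stages, 9 between E12.5 cushion and MC3T3 and 10 between E17.5 valve and MC3T3, where all genes gave 78.7%, 78.5% and 84%.

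**Figure D1:**
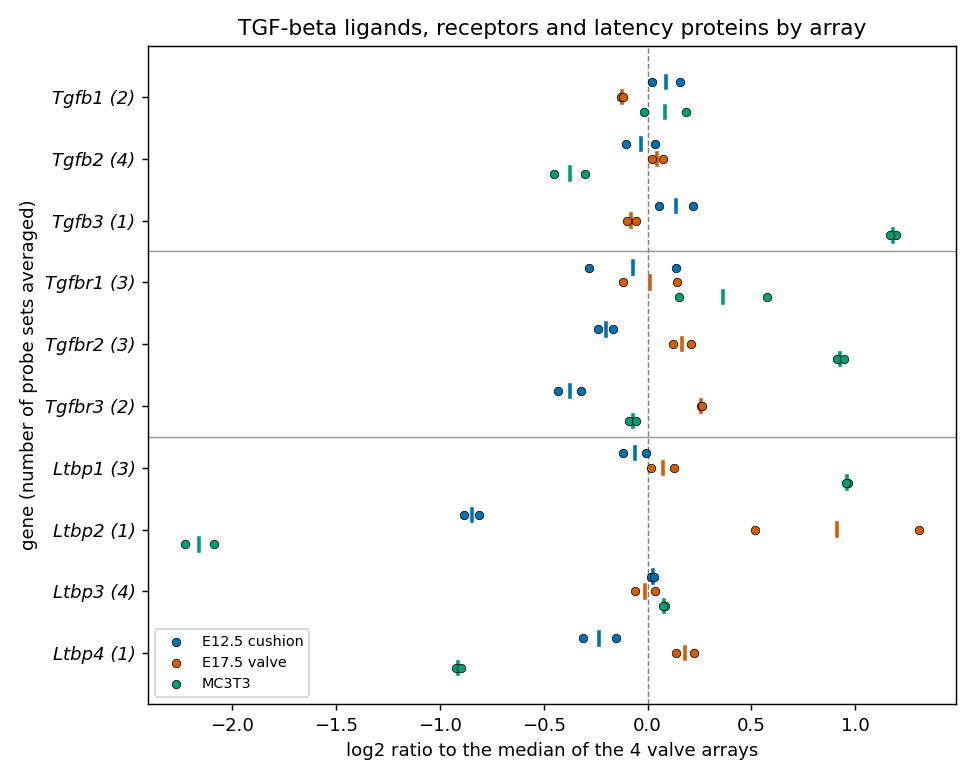
Log2 ratio of each gene (rows) on each of the 6 arrays (points), coloured by group, with the group mean as a bar and the number of probe sets averaged in brackets. Ltbp2 spans the widest range, from -2.23 in MC3T3 to 1.31 in E17.5 valve, and Ltbp3 lies near 0 on every array.

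Among the ligands, Tgfb3 set the cell line apart. Tgfb3, which in mice is needed for closure of the palate and for lung development, stood at log2 ratios of 0.22 and 0.05 at E12.5, -0.05 and -0.10 at E17.5, and 1.19 and 1.17 in MC3T3. The MC3T3 arrays lay well above all 4 valve arrays. MC3T3 cells had 2.39-fold more Tgfb3 than E17.5 valve (log2 difference -1.26 ± 0.08, valve minus MC3T3, limma adjusted p = 6.98e-06) and 2.06-fold more than E12.5 cushion (-1.05 ± 0.08, adjusted p = 1.7e-05). The second of these calls was lost without E12.5 cushion replicate 2, when the difference came to -0.96 and missed the 2-fold requirement. Between the stages Tgfb3 differed by -0.21 ± 0.08 (limma adjusted p = 0.0661, 95% interval -0.41 to -0.02). One probe set, 1417455_at, carries these values.

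Tgfb2, the ligand whose loss in mice causes cushion and valve defects, went the other way in the cell line, by less than 2-fold. Its log2 ratios were -0.10 and 0.03 at E12.5, 0.08 and 0.02 at E17.5, and -0.30 and -0.45 in MC3T3. The valve stages overlapped and the MC3T3 arrays lay below both. The difference between stages was 0.08 ± 0.09 (95% interval -0.13 to 0.29), an interval that holds no 2-fold change. E17.5 valve exceeded MC3T3 by 0.42 ± 0.09 (limma adjusted p = 0.00437) and E12.5 cushion did so by 0.34 ± 0.09 (limma adjusted p = 0.0119), both short of 2-fold. In all 4 probe sets of Tgfb2 the MC3T3 mean was the lowest of the 3 groups.

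Tgfb1, the ligand of immune and platelet biology as well as of matrix deposition, was nearly level. It stood at 0.02 and 0.16 at E12.5, -0.13 and -0.12 at E17.5, and 0.19 and -0.02 in MC3T3. The E17.5 arrays were the lowest, and the MC3T3 arrays spanned those of E12.5. The stages differed by -0.21 ± 0.10 (limma adjusted p = 0.0975, 95% interval -0.43 to 0.01). Its 2 probe sets did not move alike: 1420653_at was lower at E17.5 by -0.47 ± 0.09 (limma adjusted p = 0.00362 over probe sets), and 1445360_at differed by 0.05 ± 0.13 (adjusted p = 0.759). Of 8 platelet and megakaryocyte markers, cells that store TGF-beta1, 5 fell between the stages, and their mean log2 ratio was 1.03 and 0.29 at E12.5 and -0.49 and -0.39 at E17.5. Their part in the Tgfb1 values was not tested.

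Among the receptors, Tgfbr2 was the most different between tissue and cell line. Tgfbr2, the type II receptor that binds ligand first, stood at -0.24 and -0.17 at E12.5, 0.12 and 0.21 at E17.5, and 0.91 and 0.94 in MC3T3. The 3 groups did not overlap, and the order ran from E12.5 cushion through E17.5 valve to MC3T3. MC3T3 cells had 2.19-fold more Tgfbr2 than E12.5 cushion (-1.13 ± 0.08, limma adjusted p = 6.9e-06). Against E17.5 valve the difference was -0.76 ± 0.08 (limma adjusted p = 7.74e-05), or 1.69-fold, and was not called. Between the stages it was 0.37 ± 0.08 (limma adjusted p = 0.00566), 1.29-fold and not called.

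The mean over probe sets hid a wider spread for Tgfbr2. Probe set 1426397_at stood at -0.55 and -0.47 at E12.5, 0.36 and 0.42 at E17.5, and 1.57 and 1.61 in MC3T3. It put MC3T3 4.29-fold above E12.5 cushion and 2.3-fold above E17.5 valve, both called over probe sets, and the stages 0.90 ± 0.09 apart (limma adjusted p = 0.000155), just short of 2-fold. Probe set 1425444_a_at also put MC3T3 above both stages, 2.4-fold and 2.16-fold, but the stages only 0.16 ± 0.09 apart. The remaining probe set, 1422019_at, lay between -0.07 and 0.09 on all 6 arrays, which lowers the gene's mean difference. Which transcripts each probe set reads is not given in the files.

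Tgfbr3, which encodes betaglycan, the co-receptor that presents TGF-beta2, was higher at the later stage by under 2-fold. It stood at -0.43 and -0.32 at E12.5, 0.26 and 0.26 at E17.5, and -0.09 and -0.05 in MC3T3. The cell line fell between the stages, with no overlap among the groups. The difference between the stages was 0.63 ± 0.08 (limma adjusted p = 0.000483), 1.55-fold. Its probe set 1433795_at, at -0.58 and -0.57 at E12.5 and 0.41 and 0.46 at E17.5, was called on its own (1.01 ± 0.09, 2.01-fold, limma adjusted p = 9.54e-05 over probe sets), and 1425620_at was not (0.26 ± 0.10). MC3T3 lay 0.30 ± 0.08 above E12.5 cushion and 0.33 ± 0.08 below E17.5 valve, neither called.

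Tgfbr1, the type I receptor kinase also known as ALK5, could not be ranked with the same precision. Its log2 ratios were -0.28 and 0.14 at E12.5, -0.12 and 0.14 at E17.5, and 0.15 and 0.58 in MC3T3. Replicates lay 0.41, 0.26 and 0.42 apart, where the median gap over all genes was 0.11, 0.09 and 0.08, and replicate 1 was the lower array in each group. No comparison was called, and the differences were 0.08 ± 0.18 between the stages (95% interval -0.34 to 0.50), -0.44 ± 0.18 for E12.5 cushion minus MC3T3 (limma adjusted p = 0.073) and -0.35 ± 0.18 for E17.5 valve minus MC3T3 (limma adjusted p = 0.126). The sign between the stages turned without E12.5 cushion replicate 1 (-0.12) and without E17.5 valve replicate 2 (-0.05). Probe sets 1420894_at and 1420895_at put MC3T3 above both stages, and 1420893_a_at did not.

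**Figure D2:**
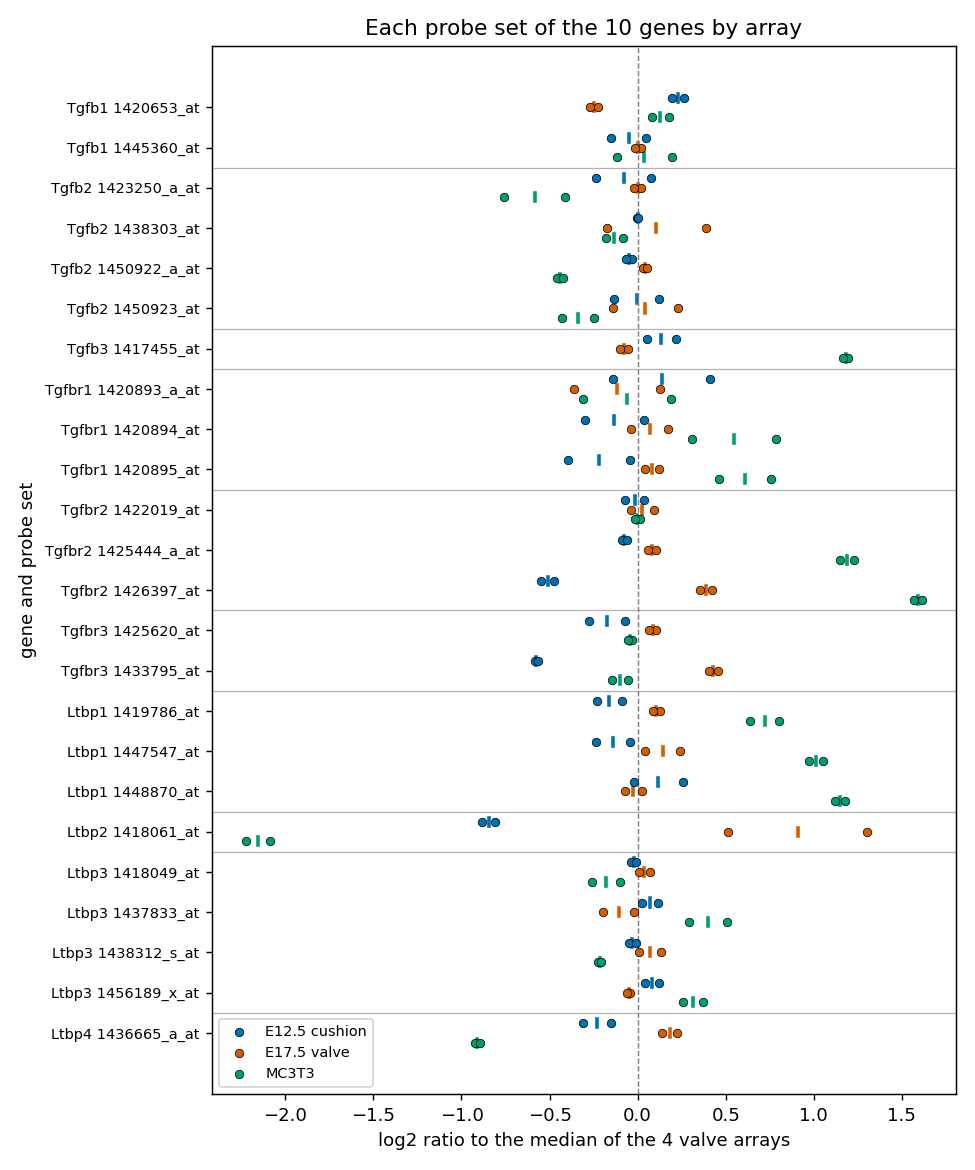
Log2 ratio of each of the 24 probe sets (rows, grouped by gene) on each of the 6 arrays (points), with group means as bars. Tgfbr2 probe set 1426397_at runs from -0.55 in E12.5 cushion to 1.61 in MC3T3, and 1422019_at stays between -0.07 and 0.09.

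The latency proteins moved in opposite directions. Ltbp2, a matrix protein of microfibrils and elastic tissue that unlike its relatives is not known to bind latent TGF-beta, stood at -0.88 and -0.81 at E12.5, 1.31 and 0.51 at E17.5, and -2.09 and -2.23 in MC3T3. No array of one group reached those of another. Ltbp2 rose between the stages by 1.76 ± 0.22 (3.38-fold, limma adjusted p = 0.000511), and exceeded MC3T3 8.38-fold in E17.5 valve (3.07 ± 0.22, adjusted p = 1.01e-05) and 2.48-fold in E12.5 cushion (1.31 ± 0.22, adjusted p = 0.00114).

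The size of the Ltbp2 rise depended on the E17.5 array used. Its E17.5 replicates lay 0.79 apart, a gap reached by 0.72% of all genes. The rise came to 1.36 without E17.5 valve replicate 1 and to 2.15 without E17.5 valve replicate 2, and each value rests on 1 E17.5 array, with the spread taken from the other groups. In E17.5 valve replicate 1, 9 of 11 hepatocyte markers stood at least 2-fold above replicate 2, with a mean log2 ratio over the list of 2.15 against 0.20. Matrix genes did not all share the gap. The tropoelastin gene Eln stood at 1.02 against 0.27, Ccn2 at 0.665 against 0.292 and Lox at 0.76 against 0.54. Ltbp4, at 0.23 against 0.14, and Postn, at 0.54 against 0.49, differed less. Col1a1 stood at 0.53 against 0.56, and Tnc went the other way, at 0.37 against 0.73. The smooth muscle list averaged 0.12 against -0.19, and the epicardial and mesothelial list 0.14 against 0.36. The part of other tissue in the Ltbp2 gap was not tested.

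Ltbp4, which binds latent TGF-beta1 and helps assemble elastic fibres, had the same order of groups as Ltbp2 on a smaller scale. It stood at -0.31 and -0.15 at E12.5, 0.23 and 0.14 at E17.5, and -0.92 and -0.90 in MC3T3. The MC3T3 arrays were the lowest and the E17.5 arrays the highest. In E17.5 valve Ltbp4 exceeded MC3T3 2.13-fold (1.09 ± 0.09, limma adjusted p = 1.72e-05). The difference of E12.5 cushion from MC3T3 was 0.68 ± 0.09 (limma adjusted p = 0.000223, 1.6-fold) and that between the stages 0.41 ± 0.09 (limma adjusted p = 0.00518, 1.33-fold), and neither was called.

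Ltbp1, which ties the latent complex of all 3 ligands to fibronectin and fibrillin, was the latency gene that was higher in the cell line. It stood at -0.12 and -0.01 at E12.5, 0.13 and 0.02 at E17.5, and 0.97 and 0.96 in MC3T3. The valve stages lay close together and the MC3T3 arrays far above. MC3T3 cells had 2.03-fold more Ltbp1 than E12.5 cushion (-1.02 ± 0.08, limma adjusted p = 1.7e-05), a call lost without E12.5 cushion replicate 1 (-0.97). Against E17.5 valve the difference was -0.89 ± 0.08 (limma adjusted p = 4.57e-05, 1.85-fold) and was not called. All 3 probe sets had MC3T3 above both stages, by 0.62 to 1.17 over E17.5 valve, and 1 of them, 1448870_at, was called there (2.26-fold). Between the stages the gene differed by 0.13 ± 0.08 (95% interval -0.06 to 0.33).

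Ltbp3, which partners latent TGF-beta in bone and cartilage, gave no difference at the level of the gene. It stood at 0.02 and 0.03 at E12.5, 0.03 and -0.06 at E17.5, and 0.08 and 0.07 in MC3T3. The widest difference was -0.09 ± 0.08, for E17.5 valve minus MC3T3 (95% interval -0.27 to 0.08). This level mean covered probe sets that disagreed. Probe sets 1437833_at and 1456189_x_at were higher in MC3T3 than in E17.5 valve, with differences of -0.51 ± 0.11 and -0.37 ± 0.09, while 1438312_s_at was lower, with 0.29 ± 0.09. The difference of 1418049_at was 0.22 ± 0.10 and did not pass (limma adjusted p = 0.0856 over probe sets). None reached 2-fold.

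**Figure D3:**
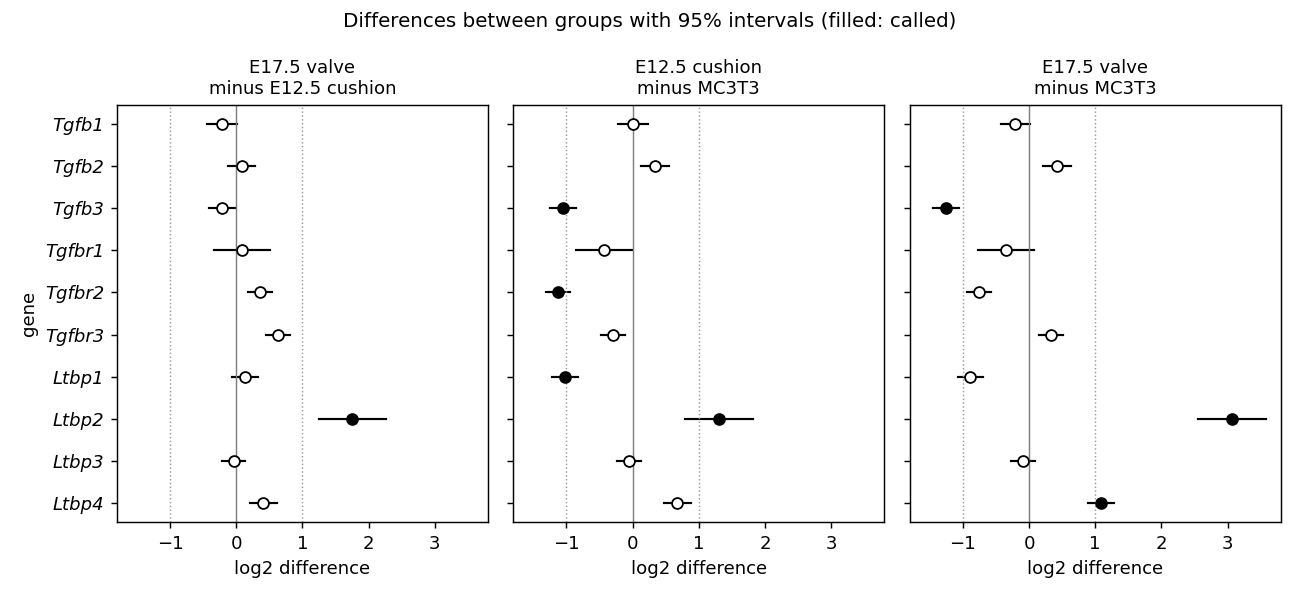
Log2 difference of each gene in the 3 comparisons (panels), with 95% intervals from limma as lines, filled points for called genes and dotted lines at 2-fold. Ltbp2 is called in every panel, and Tgfb3 in both panels with MC3T3.

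The 24 probe sets were also read one by one. Between the stages 2 were called, those of Ltbp2 and 1 of Tgfbr3, where 8.8% of all probe sets were. Against MC3T3, 6 were called for E12.5 cushion (background 23.6%) and 6 for E17.5 valve (18.5%). In the latter the 6 came from Tgfb3, Tgfbr2, Ltbp1, Ltbp2 and Ltbp4.

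Sequence before the RefSeq starts (GRCm38.p6) is shown for 3 called genes, picked after their values were seen because they moved in opposite directions, with Tgfbr2 and Ltbp1 higher in the cell line and Ltbp2 lower. Each window is the 250 bases before a start, printed 5′ to 3′ on the gene's strand, and 8 of the 10 genes had an entry. Capitals mark matches, on either strand, to CAGAC (the core of the SMAD3 and SMAD4 element), TGACGTCA (the palindromic site of CREB and ATF factors), CACGTG (a palindromic E-box), GGGCGG (the GC box of SP factors) and TATAAA (the TATA box).
Tgfbr2, chr9:116175364-116175613, minus strand: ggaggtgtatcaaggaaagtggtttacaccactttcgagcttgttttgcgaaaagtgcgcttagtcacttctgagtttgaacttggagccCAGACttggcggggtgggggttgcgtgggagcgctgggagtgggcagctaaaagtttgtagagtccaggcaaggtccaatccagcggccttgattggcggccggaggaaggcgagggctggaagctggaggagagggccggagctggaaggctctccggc
Ltbp1 upstream start, chr17:75005279-75005528, plus strand: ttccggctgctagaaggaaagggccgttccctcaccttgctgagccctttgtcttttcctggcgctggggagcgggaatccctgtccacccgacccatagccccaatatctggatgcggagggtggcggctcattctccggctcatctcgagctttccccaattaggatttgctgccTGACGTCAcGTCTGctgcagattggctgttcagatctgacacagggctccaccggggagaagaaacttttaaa
Ltbp1 downstream start, chr17:75178531-75178780, plus strand: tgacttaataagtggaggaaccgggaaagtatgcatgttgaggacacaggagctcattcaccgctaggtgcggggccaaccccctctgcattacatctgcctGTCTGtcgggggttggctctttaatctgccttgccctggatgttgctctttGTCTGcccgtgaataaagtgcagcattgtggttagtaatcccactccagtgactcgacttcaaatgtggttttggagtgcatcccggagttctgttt
Ltbp2, chr12:84876492-84876741, minus strand: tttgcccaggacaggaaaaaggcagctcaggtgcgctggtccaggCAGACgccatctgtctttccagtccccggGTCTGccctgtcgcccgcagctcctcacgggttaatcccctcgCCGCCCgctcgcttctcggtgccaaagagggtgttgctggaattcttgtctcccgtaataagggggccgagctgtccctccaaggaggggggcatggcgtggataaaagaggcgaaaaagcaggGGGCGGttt

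The CAGAC letters were in all 4 of these windows, in 7 of the 12 windows of the family (not in those of Tgfb1 and Ltbp4 or in 1 of 2 of Tgfbr1), and in 42.2% of the 32851 windows of the same length in the table. Ltbp2, lower in MC3T3, held 2 such matches, 205 and 176 bases before the start, and 2 GC boxes, a motif found in 32.7% of windows. Tgfbr2 held 1 match, 160 bases before the start. The upstream start of Ltbp1 held the CREB and ATF palindrome 73 bases before it, which 1.55% of windows had, and a CAGAC match at 64 bases. The downstream start of Ltbp1 held 2 CAGAC matches and no other motif. Tgfb2, not printed, held the E-box (6.02% of windows) 51 bases and the TATA box (12.4%) 31 bases before its start. These are matches of letters and were not tied to the expression values.

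Genes with the closest profile were sought for the 5 genes whose group means spanned at least 1 on the log2 scale, as the smallest root mean square log2 difference over the 6 arrays. The 3 nearest to Tgfb3 were Tex10 (0.042), Cacna1a (0.044) and Rfx5 (0.049). Nearest to Tgfbr2 were Slc30a7 (0.034), Cdk12 (0.039) and Smchd1 (0.041), and nearest to Ltbp1 were Frmd6 (0.032), Map3k7 (0.041) and Thumpd3 (0.045). Map3k7 encodes TAK1, a kinase that TGF-beta receptors activate. Ltbp2 had no neighbour as close, with Cidea (0.18), Kbtbd12 (0.20) and the angiotensin receptor gene Agtr1a (0.20). Ltbp4 lay nearest to the frizzled receptor gene Fzd6 (0.057), to Nipsnap2 and to Fzd4 (both 0.065). All these neighbours, Map3k7 included, were picked as the closest of all measured genes over only 6 arrays. Shared regulation was not tested.

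The rest of the pathway was read from 3 lists with 75 measured genes. Between the stages 10 of them rose and 3 fell, 17 of 20 activation and matrix genes and 27 of 29 receptor partners and SMAD genes being uncalled. Against MC3T3 10 were higher and 26 lower in E12.5 cushion, and 13 were higher and 21 lower in E17.5 valve. The background shares were 4.67% higher and 1.84% lower between the stages, 10.2% and 10.8% for E12.5 cushion, and 9.78% and 7.94% for E17.5 valve. The median log2 difference of the 75 genes was -0.03 between the stages (all genes -0.14), -0.34 for E12.5 cushion minus MC3T3 (all genes 0.01) and -0.43 for E17.5 valve minus MC3T3 (all genes -0.15).

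Genes that hold, free or bind the ligand included both directions. Of 20, Dcn, the proteoglycan decorin that binds TGF-beta, rose 3.03-fold between the stages (1.60 ± 0.08) and Itgb8, the beta subunit of an integrin that activates latent TGF-beta, rose 2.84-fold (1.51 ± 0.10). Thbs1, encoding thrombospondin 1, another activator, fell 2.25-fold (-1.17 ± 0.10). Itgb8 stood at -0.95 and -0.83 at E12.5, 0.52 and 0.71 at E17.5 and -2.60 and -2.44 in MC3T3, the same order of groups as Ltbp2, and was 8.78-fold above MC3T3 in E17.5 valve. Fmod, the matrix proteoglycan fibromodulin, was 19.2-fold and 16.2-fold higher in MC3T3 than in E12.5 cushion and E17.5 valve, and the protease gene Mmp2 3.7-fold and 5.36-fold. Thbs1 was 4.66-fold higher in MC3T3 than in E17.5 valve. Nrros, which anchors latent TGF-beta1 on macrophages, was in E17.5 valve 3.01-fold above MC3T3, and 10 of 14 macrophage and leukocyte markers were also higher there. Their part was not tested.

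Among receptor partners and signal carriers, Eng, the endothelial co-receptor endoglin, exceeded MC3T3 6.55-fold in E12.5 cushion and 8.01-fold in E17.5 valve. Acvrl1, the endothelial type I receptor ALK1, exceeded MC3T3 2.02-fold in E17.5 valve (1.01 ± 0.10). The 14 endothelial markers had mean log2 ratios of -0.43 to 0.33 on the valve arrays and -3.32 to -3.27 on the MC3T3 arrays, with Tek and Emcn at the lowest ratio, and the part of endothelial cells in the Eng and Acvrl1 values was not tested. Cd109, a co-receptor that dampens TGF-beta signalling, was 15.7-fold and 11.3-fold higher in MC3T3 than in E12.5 cushion and E17.5 valve. The signal carriers differed less: Smad2 and Smad4 were called in no comparison, nor was Smad3, which differed by -0.63 ± 0.08 between the stages (limma adjusted p = 0.000438) and by -0.74 ± 0.08 for E17.5 valve minus MC3T3. Smad7, the feedback inhibitor that TGF-beta induces, exceeded MC3T3 2.35-fold in E12.5 cushion and 2.21-fold in E17.5 valve, and so did Skil, a SMAD corepressor (2.92-fold and 2.58-fold). Between the stages, Tgif1, another corepressor, fell 2.8-fold and the SMAD anchor gene Zfyve16 rose 2.6-fold. Unlike Skil, Tgif1 was higher in MC3T3 than in E17.5 valve (3.75-fold). Tgif2 exceeded MC3T3 4.32-fold in E12.5 cushion and 2.36-fold in E17.5 valve.

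Of 26 response genes, 7 rose and 1 fell between the stages. The rises were led by Lox, a collagen crosslinking enzyme (3.37-fold), Col1a1 (2.71-fold), Postn, encoding periostin (2.65-fold), and Tnc, encoding tenascin C (2.24-fold), and the actin-binding smooth muscle gene Tagln fell 2.36-fold. In MC3T3 cells 11 response genes were higher than in E12.5 cushion and 3 lower, and 12 were higher than in E17.5 valve and 4 lower. Tnc was 17.4-fold and 7.77-fold higher in MC3T3 than in E12.5 cushion and E17.5 valve, and Cdkn1a, the cell cycle inhibitor p21, 5.67-fold and 6.51-fold. On the lower side in MC3T3 were Tgfbi, an adhesive matrix protein named for its induction by TGF-beta (8.43-fold below E12.5 cushion, 5.22-fold below E17.5 valve), Eln (7.56-fold and 15.4-fold) and Klf10, an early response factor (2.13-fold and 2.08-fold). Ccn2, connective tissue growth factor, rose 2.05-fold between the stages (1.04 ± 0.16) and was 3.17-fold lower in MC3T3 than in E17.5 valve. Many of these are also genes of bone or smooth muscle matrix, and their place in the list does not show that TGF-beta set their level here.

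**Figure D4:**
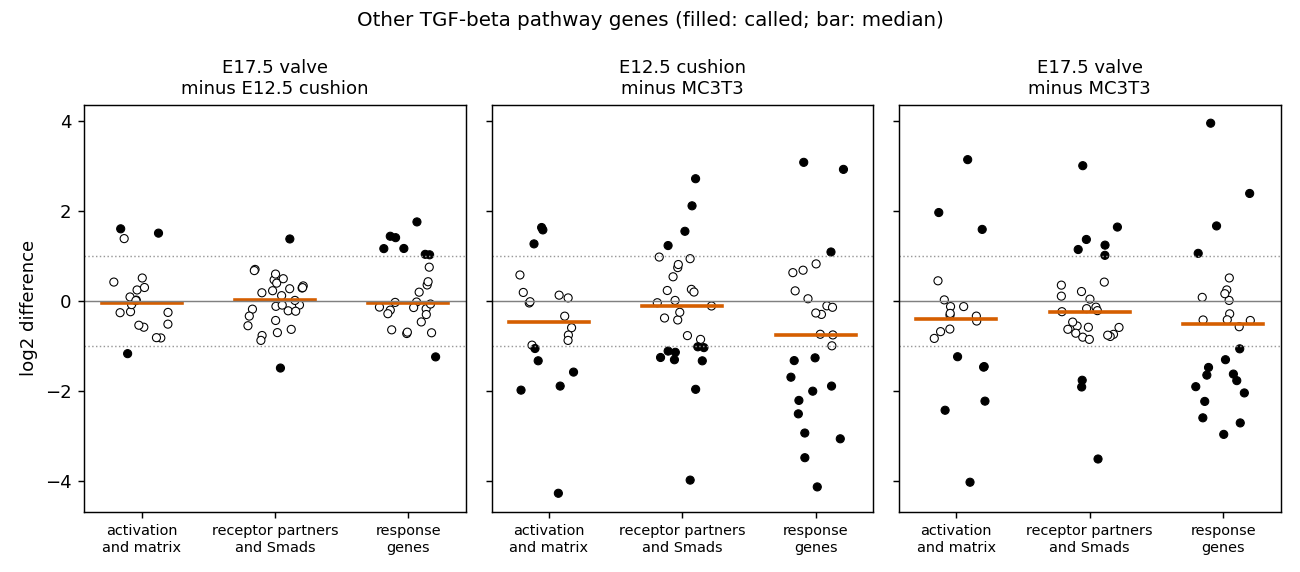
Log2 difference of each of the 75 other pathway genes (points) by list in the 3 comparisons (panels), with called genes filled, list medians as bars and dotted lines at 2-fold. The response genes have the lowest list median against MC3T3, at -0.74 for E12.5 cushion and -0.50 for E17.5 valve.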

How the data were processed

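Per the deposited experiment description, array images were processed by the authors in GeneSpring GX 7.3 with RMA and quantile normalization, and each value was set against a median to give a ratio. In the deposited ratios that reference is each probe set's median over the 4 valve arrays, for all 45101 probe sets (tolerance 1e-05), and the lowest ratio is 0.01. The labels' protocols name more than 1 amplification kit without saying which array had which. Whether the MC3T3 arrays were normalized with the others is not known here.

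Left out were 64 control probe sets, 932 naming several genes and 9160 naming none. Of 18193 genes, 18032 were matched to RefSeq by gene identifier and took the symbol given there, changed or not. Log2 ratios were averaged per gene and fitted with limma 3.58.1 in R 4.3.3 (lmFit and eBayes, no trend, all 6 arrays; 3 residual degrees of freedom and a prior of 4.57), p-values were adjusted by Benjamini-Hochberg separately for each comparison, and 95% intervals used the moderated t distribution. The fit was run on simulated data with independent noise for each gene. Real arrays can differ from that setting, so the run does not show that the calls here are right. Named are all members, some of the called genes of each pathway list (at most 4 each way per comparison), a few fixed pathway genes and the nearest profiles. The called genes named are not always those with the largest differences. Members and lists were chosen with earlier results of these data known. Ratios hold no level, so no filter on dim probe sets, background correction, other normalization or slide block was run. The alternatives tried included array centring, the most variable probe set per gene, single probe sets, other call rules, a replicate block and leaving out each array. Also tried were eBayes with a trend and robust, only the arrays compared, and an equal-variance test over the groups. Further settings left out probe sets ending in _x_at or _s_at, or genes at the lowest ratio. The number of arrays limits precision.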

Additional observations from a re-analysis of the deposited data

How the results depend on the processing

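Of 330 recomputed differences of the 10 genes, 314 kept their direction and their side of the threshold, and 8 changed sign, all uncalled. After subtracting each array's median, Ltbp3 came to 0.079 between the stages and 0.033 for E17.5 valve minus MC3T3. With the most variable probe set, Ltbp1 came to -0.14 between the stages. Leaving out each array in turn, the stage difference ranged from -0.12 to 0.29 for Tgfbr1 and from -0.085 to 0.0087 for Ltbp3, and E12.5 cushion minus MC3T3 ranged from -0.098 to 0.11 for Tgfb1. With the most variable probe set 2 of the 10 genes were called between the stages and 5 between E17.5 valve and MC3T3, and 2027 of all genes between the stages. With every probe set as its own item the counts were 2, 5 and 2147. Between the stages the count of all genes thus rose as well, from 1185 in the main fit. For E17.5 valve against MC3T3 the all-gene count under these settings is not given here. Of single probe sets, 6 of the 24 were called in that comparison, where 18.5% of all probe sets were. The 5 genes are therefore not read as a result about the family. Without the fold requirement 4, 7 and 7 of the 10 genes passed between the stages, for E12.5 cushion and for E17.5 valve against MC3T3, with 9740, 10482 and 10942 of all genes and 51, 60 and 62 other pathway genes. At 4-fold or more, with the adjusted p kept at 0.05, these were 0, 0 and 1 of the 10 genes by limma, 154, 1244 and 1233 of all genes, and 0, 12 and 13 pathway genes. Deviations of same-numbered arrays correlated at 0.15, 0.058 and 0.023, so the numbers were not taken to pair arrays; with the replicate number as a block, 1, 4 and 3 of the 10 genes were called, with 1202, 3835 and 3237 of all genes and 14, 36 and 34 pathway genes. The cause of these shifts was not tested. Ratios without levels leave signal over background unknown.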
